A study of Mus musculus with 12 samples.

Results

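The epithelial layer of a mouse uterine co-culture was compared with the stromal layer of the same culture system while both were exposed to estradiol (E2), an estrogen that acts through the nuclear receptor Esr1. The series holds 12 arrays in 4 groups of 3, and the 6 E2 arrays, chosen by their titles, are described here. Cells of both layers came from enzyme-digested uteri of CD-1 mice, an outbred strain, on day 4 of pseudopregnancy. Epithelial sheets sat on inserts coated with matrigel, a basement membrane extract, whereas stromal cells sat on cover slips, so the growth surface and the cell layer cannot be told apart. Both layers spent a night in medium without phenol red and with 1% charcoal-stripped serum, and then 2 days with 10 nM E2. Values of the 6 arrays of the vehicle groups (0.01% ethanol, otherwise the same culture) are given only where named. These arrays do enter the estimate of each gene's spread, and so every standard error and p-value, and the choice of probe set. Nothing in the labels states that replicate arrays are from different cultures or mice. A p-value here reflects the scatter of the 12 arrays alone, which may be technical. Probe sets with exactly 1 gene symbol numbered 21789 of 35556 and gave 19938 genes.

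In the uterus, estrogen acts on both compartments, and much of the epithelial response is relayed by paracrine signals, secreted factors that stromal cells make and epithelial receptors read. Signals run the other way as well, as with Indian hedgehog, which the epithelium makes and stromal Ptch1 receives. A ligand and its receptor can therefore be set side by side, layer against layer, together with the identity genes that tell which cells each layer held.

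Values are log2 signals as deposited for Mouse Gene 1.0 ST arrays (Affymetrix), on which 1 unit is a 2-fold step and signals of different genes cannot be compared. A difference is epithelial minus stromal, ± its standard error from limma, with n = 3 arrays per layer, and a gene passed at a Benjamini-Hochberg adjusted p below 0.05. Epithelial arrays correlated with each other at 0.977 to 0.997 and stromal arrays at 0.994 to 0.998, against 0.946 to 0.974 between layers. In both layers replicates 1 and 2 were closest to each other (0.997 in epithelium and 0.998 in stroma) and replicate 3 stood apart, at 0.977 and 0.981 in epithelium and 0.994 and 0.995 in stroma. Whether replicates 1 and 2 came from 1 culture is not given in the labels, and with them averaged into 1 array per layer the genes that passed numbered 391 in epithelium and 882 in stroma, in place of 884 and 1969. The median SD of a gene was 0.158 in the epithelial and 0.0804 in the stromal arrays. As a measure of signal from genes that neither layer should express, the 1027 olfactory receptor genes (chosen after the data were seen) had a median of 5.15 in the epithelial and 4.84 in the stromal arrays, with 95th percentiles of 6.92 and 6.56. Their median difference was 0.26, with a 5th to 95th percentile range of 0.04 to 0.54, and 12 passed as epithelial and 0 as stromal. Values near these levels are close to the array background, where a small epithelial excess is shared by olfactory receptor genes and a fold is no measure of a transcript ratio.

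Of the 19938 genes, 884 were higher in the epithelial layer (4.43%) and 1969 in the stromal layer (9.88%). The arrays of the layers did not overlap in 7822 genes (39.2%), so a lack of overlap alone says little. The epithelial differences were larger, with 388 genes at least 2-fold and 49 at least 8-fold higher in epithelium, against 455 and 7 in stroma. The epithelial share of the calls, 31.0%, was 17.8% with arrays centred on their medians over all probe sets, where the median of all genes was -0.10 in place of 0.01, and 43.7% with array weights. Without epithelial replicate 3 the counts were 887 and 1489. Leaving out a stromal array gave 559 to 603 epithelial and 1189 to 1302 stromal calls, the lowest of each without stromal replicate 2.

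Epithelial markers separated the layers. Of 23 epithelial markers measured, 17 were higher in the epithelial layer and 0 in the stromal layer, with a median difference of 2.06 against 0.01 over all genes. Krt8, a keratin of simple epithelia, had 11.91, 11.91 and 11.89 in the epithelial arrays, against 7.75, 7.97 and 7.54 in the stromal arrays (4.15 ± 0.19, adjusted p = 6.21e-07). Epcam, an epithelial adhesion molecule, had 9.23, 9.96 and 10.02 in epithelium, against 5.68, 5.99 and 6.04 in stroma (3.83 ± 0.36, adjusted p = 4.92e-05). The groups were far apart, and the stromal Epcam values lay within the range of the olfactory receptor genes. Cdh1, the epithelial cadherin, differed by 3.88 ± 0.31, the transcription factor Elf3 by 3.89 ± 0.38 and Krt19 by 3.30 ± 0.37. Krt18, the keratin partner of Krt8, had 11.57, 11.51 and 11.16 in the epithelial arrays, against 9.73, 9.54 and 8.92 in the stromal arrays (2.02 ± 0.34, adjusted p = 0.00232).

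Stromal markers gave calls in both directions. Of 25 measured, 6 were higher in the stromal layer, 3 in the epithelial layer and 16 did not pass, with a median of -0.24. Vim, the mesenchymal intermediate filament, had 12.95, 12.86 and 12.74 in the epithelial arrays, against 13.09, 13.04 and 13.14 in the stromal arrays (-0.24 ± 0.08, adjusted p = 0.0794). Pdgfra, a receptor of fibroblasts, had 11.77, 11.94 and 11.71 in epithelium, against 11.95, 11.96 and 11.89 in stroma (-0.13 ± 0.37, adjusted p = 0.857). Both genes were thus high in the layer labelled epithelial, and the Pdgfra values of the layers overlapped. Among further members that did not pass, chosen after their values were seen, the collagen Col1a1 differed by 0.14 ± 0.15, the proteoglycan Dcn by 0.77 ± 0.35 and fibronectin (Fn1) by 0.17 ± 0.07. The mean over the 25 markers was 10.28, 10.28 and 10.09 in the epithelial arrays, against 10.41, 10.43 and 10.56 in the stromal arrays. The cells that carried these transcripts cannot be identified in bulk RNA, and in all that follows fewer cells of a type and less RNA per cell cannot be told apart. The part that stromal transcripts in the epithelial layer have in any difference below was not tested.

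**Figure D1:**
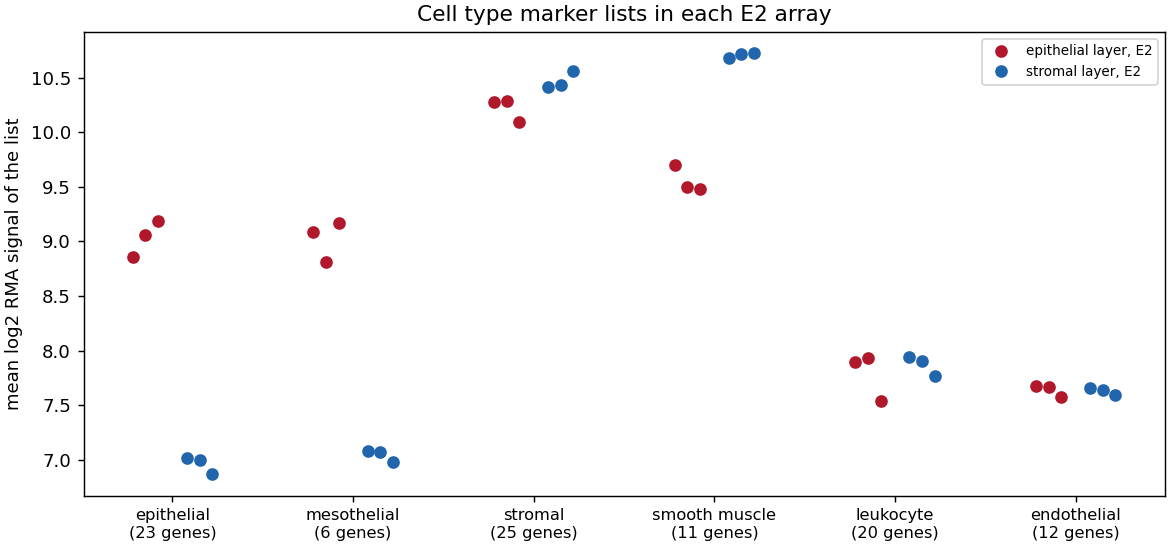
Mean log2 signal of 6 cell type marker lists (y axis) in each E2 array, with epithelial arrays left and stromal arrays right in each column and 1 point per array. Epithelial and mesothelial lists lie far higher in the epithelial layer, the smooth muscle list lies higher in the stromal layer, and the stromal list is close to equal (10.09 to 10.28 in epithelium, 10.41 to 10.56 in stroma).

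The markers that did pass as stromal included Pdgfrb, a receptor of fibroblasts and mural cells, with 11.63, 11.66 and 11.57 in epithelium, against 12.76, 12.77 and 12.81 in stroma (-1.16 ± 0.25, adjusted p = 0.00928). The homeobox genes Hoxa10 (-1.18 ± 0.20) and Hoxa11 (-1.53 ± 0.28), which pattern the uterus, were lower in epithelium, as were the calcium-binding protein S100a4 (-1.70 ± 0.33) and the transcription factor Zeb1 (-0.88 ± 0.15). The exceptions ran the other way. Tcf21, a mesenchymal transcription factor, had 10.06, 9.53 and 10.52 in the epithelial arrays, against 7.54, 7.57 and 8.54 in the stromal arrays (2.15 ± 0.44, adjusted p = 0.00675). The fibroblast protease Fap (1.05 ± 0.19) and the mesenchymal factor Twist1 (0.97 ± 0.15) were also higher in the epithelial layer. In the wider list of 27 mesenchymal transcription factors, 4 were higher in epithelium and 6 in stroma, and 2 to 5 and 4 to 6 with 1 array left out, the lowest epithelial count without stromal replicate 2. Foxl2, a forkhead factor, differed by -1.47 ± 0.17. Nr2f2 (-0.08 ± 0.09, adjusted p = 0.576) and Hand2 (-0.11 ± 0.20, adjusted p = 0.772), stromal regulators in the uterus, did not pass, and Hand2 changed sign without epithelial replicate 3 (0.01).

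Mesothelial and smooth muscle markers also differed between the layers. All 4 mesothelial markers that passed, of 6 measured, were higher in the epithelial layer. Upk3b had 10.48, 9.77 and 10.62 in epithelium, against 7.11, 7.05 and 6.93 in stroma (3.26 ± 0.26), and Msln, or mesothelin, differed by 2.79 ± 0.19 and Upk1b by 3.59 ± 0.20. The mesothelial factor Wt1 did not pass (0.22 ± 0.17, adjusted p = 0.426). Smooth muscle genes stood on the stromal side, with 10 of 11 higher there and 0 in epithelium. Actg2, an actin of visceral muscle, had 9.76, 9.39 and 8.79 in the epithelial arrays, against 12.24, 12.28 and 12.06 in the stromal arrays (-2.88 ± 0.21, adjusted p = 1.27e-05). The smooth muscle myosin Myh11 differed by -2.72 ± 0.22, and Acta2 by -0.58 ± 0.07.

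Endothelial genes disagreed with each other, 1 of 12 passing in each direction. Kdr, a VEGF receptor, had 11.29, 11.49 and 10.23 in epithelium, against 7.73, 7.72 and 7.76 in stroma (3.27 ± 0.26, adjusted p = 1.75e-05), while the sialomucin Emcn differed by -2.61 ± 0.52. The defining endothelial genes Pecam1 (6.33 to 6.44 in epithelium and 6.47 to 6.77 in stroma) and Cdh5 (8.57 to 9.39 and 9.74 to 9.94) did not pass, and Pecam1 lay within the olfactory receptor range. Of 20 leukocyte markers, Cd14 was higher in epithelium (1.96 ± 0.29) and Csf1r (-1.46 ± 0.14) and Adgre1 (-0.85 ± 0.24) in stroma. Over all genes 4.43% were higher in epithelium and 9.88% in stroma, so the few calls in these 2 lists say little about endothelial cells or leukocytes. The pan-leukocyte gene Ptprc had 7.03, 7.28 and 6.55 in epithelium, against 7.32, 7.36 and 7.06 in stroma (-0.29 ± 0.18, adjusted p = 0.334). The Adgre1 call was lost without any of the stromal arrays (adjusted p up to 0.11), and without epithelial replicate 1 the epithelial count was 2. None of the 2 erythroid or the 4 nerve and glia markers passed, and of 5 adipocyte markers Fabp4 alone did (-1.97 ± 0.17).

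Among genes ranked by the size of the difference, Sprr2f came first in epithelium. This small proline-rich protein of the cornified envelope, a classic estrogen-responsive gene of the mouse uterine epithelium, had 12.04, 12.19 and 12.32 in the epithelial arrays, against 6.24, 6.15 and 6.33 in the stromal arrays. The difference was 5.94 ± 0.27 (61.5-fold in signal, adjusted p = 6.21e-07). Ltf, or lactoferrin, had 10.05, 10.86 and 11.23 in epithelium, against 6.22, 5.95 and 6.10 in stroma (4.62 ± 0.43). In both genes the stromal values lay within the olfactory receptor range. Lcn2, an iron-siderophore binding lipocalin, differed by 4.42 ± 0.41, the secreted chaperone clusterin (Clu) by 4.19 ± 0.19, and the mucin Muc1 by 4.09 ± 0.33. The sodium pump subunit Atp1b1 (4.10 ± 0.21), the transcytosis protein Mal2 (4.00 ± 0.46), the peptidase inhibitor Pi15 (3.99 ± 0.31) and the adhesion receptor Adgrg1 (3.99 ± 0.32) followed. The tight junction genes F11r (3.97 ± 0.16) and Cldn4 (3.94 ± 0.25), the glypican Gpc3 (3.92 ± 0.40) and the scavenger receptor Olr1 (3.91 ± 0.64) completed the 15 with Sprr2d and Krt8. Each kept its call with any 1 of the 6 arrays left out.

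Because several Sprr2 genes were higher in epithelium together, the 250 bases before the annotated start of the 3 with the largest differences are shown. Capitals mark an AP-1 site (TGANTCA), an octamer (ATTTGCAT) and a TATA box (TATAAA), in that order. The sequences are those of RefSeq for GRCm38.p6, on the plus strand, 5′ to 3′, at chr3:92364937-92365186 for Sprr2f, chr3:92338890-92339139 for Sprr2d and chr3:92316455-92316704 for Sprr2b.
Sprr2f: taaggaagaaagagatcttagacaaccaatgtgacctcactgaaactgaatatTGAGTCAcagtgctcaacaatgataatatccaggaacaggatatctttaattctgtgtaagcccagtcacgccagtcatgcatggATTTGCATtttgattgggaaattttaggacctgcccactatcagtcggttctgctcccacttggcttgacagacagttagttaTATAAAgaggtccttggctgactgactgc
Sprr2d: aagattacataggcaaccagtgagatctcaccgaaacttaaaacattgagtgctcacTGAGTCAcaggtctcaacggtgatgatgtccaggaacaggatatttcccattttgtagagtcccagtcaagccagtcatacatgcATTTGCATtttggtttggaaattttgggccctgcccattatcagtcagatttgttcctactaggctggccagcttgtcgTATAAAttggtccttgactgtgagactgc
Sprr2b: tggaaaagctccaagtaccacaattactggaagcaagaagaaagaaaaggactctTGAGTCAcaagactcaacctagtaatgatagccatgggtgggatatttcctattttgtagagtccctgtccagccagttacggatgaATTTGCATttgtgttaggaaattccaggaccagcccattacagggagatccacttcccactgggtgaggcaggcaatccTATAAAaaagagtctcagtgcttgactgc
The motifs do not overlap one another. TGANTCA and ATTTGCAT were searched on both strands and TATAAA on the strand of the gene. Each motif was found in all 7 Sprr2 promoters of the table, those of Sprr2b, Sprr2d, Sprr2e, Sprr2f, Sprr2h, Sprr2i and Sprr2k, and the TATA box began 29 bases before the start in each. Related genes that did not pass also held some of them. Sprr1a and Sprr1b had the AP-1 site and the TATA box without the octamer, Sprr3 the TATA box alone, and Sprr4 none. Over the promoters of 27025 genes, windows of the same length held the AP-1 site in 6.87%, the octamer in 1.61% and the TATA box in 8.12%. These matches are a description of related sequences, the Sprr2d and Sprr2b windows being 70.0% and 61.3% identical to that of Sprr2f.

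The genes behind these promoters differed in size of difference. Sprr2d had 11.36, 11.43 and 10.07 in the epithelial arrays, against 6.79, 6.70 and 6.85 in the stromal arrays (4.17 ± 0.45, adjusted p = 0.000127). Sprr2b had 8.66, 8.70 and 7.92 in epithelium, against 4.70, 4.93 and 4.92 in stroma (3.58 ± 0.58). Sprr2e differed by 1.50 ± 0.20, Sprr2h by 1.06 ± 0.14, Sprr2k by 0.50 ± 0.13 and Sprr2i by 0.31 ± 0.08. The last 2 differences lay within the olfactory receptor range of 0.04 to 0.54. Sprr2k was lost without epithelial replicate 3 or stromal replicate 2 or 3 (adjusted p up to 0.0873). Sprr2i was lost without epithelial replicate 1 or 2 or stromal replicate 2 or 3 (adjusted p up to 0.0829). The epithelial levels of Sprr2h, Sprr2i and Sprr2k (5.37 to 6.26) were within the olfactory receptor range. Since the copies are closely related, probes of 1 gene may have bound transcripts of another, and which copies carried the signal is uncertain. Of 30 keratin and cornified envelope genes, 15 were higher in epithelium and 1, Krt80, in stroma, against 4.43% and 9.88% of all genes. With 1 array left out, 10 to 13 were epithelial and 0 stromal. The Krt80 call (-0.51 ± 0.15, adjusted p = 0.0458) was lost without any 1 of the 6 arrays (adjusted p 0.082 to 0.139). Krt7, a keratin of simple epithelia, had 10.56, 10.71 and 11.01 in epithelium, against 8.86, 8.73 and 8.52 in stroma (2.06 ± 0.28).

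**Figure D2:**
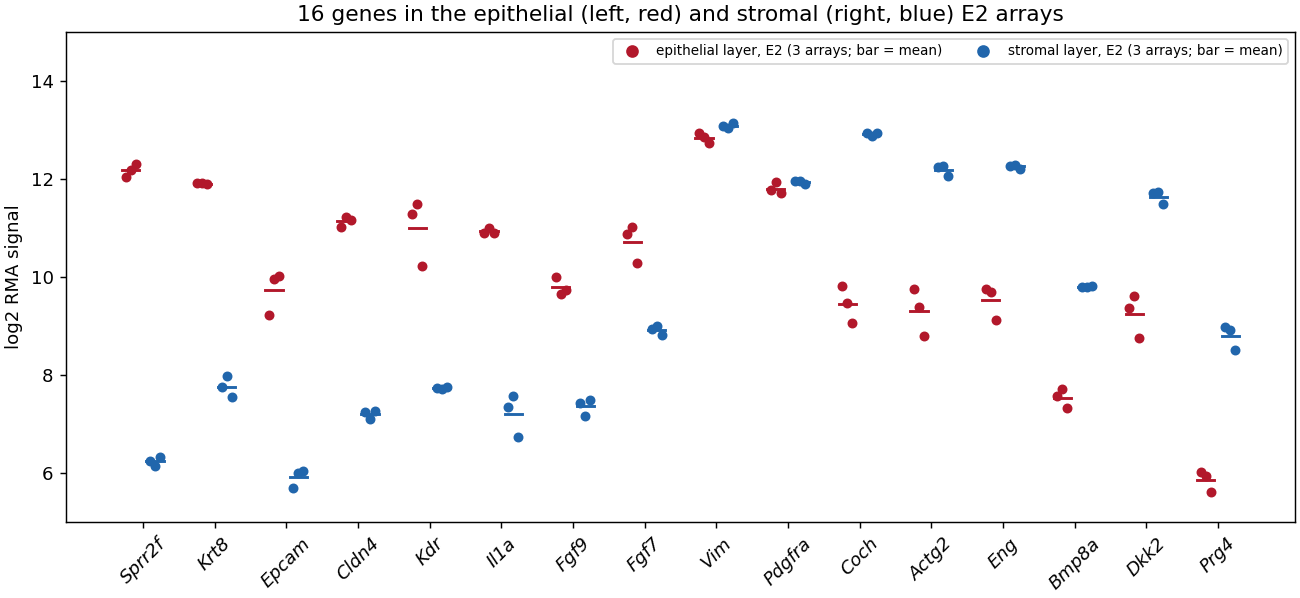
Log2 signal (y axis) of 16 genes in the 3 epithelial arrays (left, red) and the 3 stromal arrays (right, blue) under E2, 1 point per array and a bar at the mean. Sprr2f, Krt8, Epcam, Cldn4, Kdr, Il1a, Fgf9 and Fgf7 lie higher in epithelium, Coch, Actg2, Eng, Bmp8a, Dkk2 and Prg4 higher in stroma, and Vim and Pdgfra are high in both layers.

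Junctions and polarity complexes hold epithelial sheets together. Of 32 junction and polarity genes, 13 were higher in epithelium and 0 in stroma, against 4.43% and 9.88% of all genes. With 1 array left out, 10 to 12 were epithelial and 0 stromal. The gap junction protein Gjb2 had 9.94, 9.17 and 10.81 in epithelium, against 6.43, 6.17 and 6.27 in stroma (3.69 ± 0.65), and Cldn6 differed by 2.84 ± 0.40. The desmosomal cadherins Dsc2 (2.28 ± 0.47) and Dsg2 (1.96 ± 0.44) passed as well, Dsg2 only just missing without stromal replicate 3 (adjusted p = 0.0503). The same list holds cadherins of mesenchymal cells, named here after their values were seen. Cdh11, the osteoblast cadherin, had 12.41, 12.46 and 12.36 in the epithelial arrays, against 11.63, 11.64 and 11.45 in the stromal arrays (0.84 ± 0.10, adjusted p = 0.000238), and N-cadherin (Cdh2) differed by 0.82 ± 0.17.

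Of 26 secreted and apical proteins of epithelia, 14 were higher in the epithelial layer and 2 in the stromal layer, against 4.43% and 9.88% of all genes. With 1 array left out, 12 or 13 were epithelial and 2 stromal. Slpi, a secreted protease inhibitor, had 11.19, 11.21 and 10.91 in epithelium, against 8.10, 8.12 and 8.23 in stroma (2.95 ± 0.21). Ceacam1, a cell adhesion molecule, differed by 3.87 ± 0.36. The exceptions were the serine protease Prss23 (-0.89 ± 0.14) and the sodium channel subunit Scnn1b (-0.57 ± 0.08). Of 21 uterine epithelial regulators, 6 were higher in epithelium and 1 in stroma, and 2 remained on the epithelial side without epithelial replicate 3 or any stromal array, while 2 passed on the stromal side without epithelial replicate 1. Those kept throughout were Id1, an inhibitor of basic helix-loop-helix factors (1.46 ± 0.20), and Gata3 (0.87 ± 0.16), and the stromal gene was Klf4 (-0.81 ± 0.15).

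In the stromal direction, Coch, which encodes the matrix protein cochlin, led with 9.81, 9.47 and 9.06 in the epithelial arrays, against 12.93, 12.89 and 12.94 in the stromal arrays (-3.47 ± 0.46, 11.1-fold, adjusted p = 0.000501). Prg4, or lubricin, a lubricating proteoglycan, had 6.02, 5.93 and 5.62 in epithelium, against 8.97, 8.91 and 8.51 in stroma (-2.94 ± 0.15, 7.69-fold, adjusted p = 1.4e-06). The epithelial Prg4 values lay within the olfactory receptor range. Among the 15 leading genes were also kininogen (Kng1, -3.37 ± 0.31), the matrix protein Spon2 (-3.27 ± 0.33), the retinol carrier Rbp4 (-3.25 ± 0.36), the calcium-binding Smoc1 (-2.97 ± 0.30) and the proteoglycan Prelp (-2.93 ± 0.47). Enzymes included the cysteine dioxygenase Cdo1 (-3.15 ± 0.19), the monoamine oxidase Maob (-2.89 ± 0.24) and the retinaldehyde dehydrogenase Aldh1a1 (-2.80 ± 0.28). The GABA receptor subunit Gabrb2 (-3.04 ± 0.24), the G protein regulator Rgs4 (-3.03 ± 0.29), the thyrotropin receptor Tshr (-2.90 ± 0.16) and the sarcomere protein Myom1 (-2.89 ± 0.26) completed the 15 with Actg2. None of these calls was lost when 1 array was left out.

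Of 174 ligand genes measured, 33 were higher in the epithelial layer (19.0%) and 33 in the stromal layer (19.0%), above the 4.43% and 9.88% over all genes. Of 195 receptor genes, 32 were higher in epithelium (16.4%) and 31 in stroma (15.9%). The lists were chosen with earlier results of these data known, and all genes include olfactory receptor genes near the array background. The higher shares therefore cannot be read as a property of ligands or receptors. The ligand families leaned to different sides, as the plot of ligand and receptor lists shows.

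**Figure D3:**
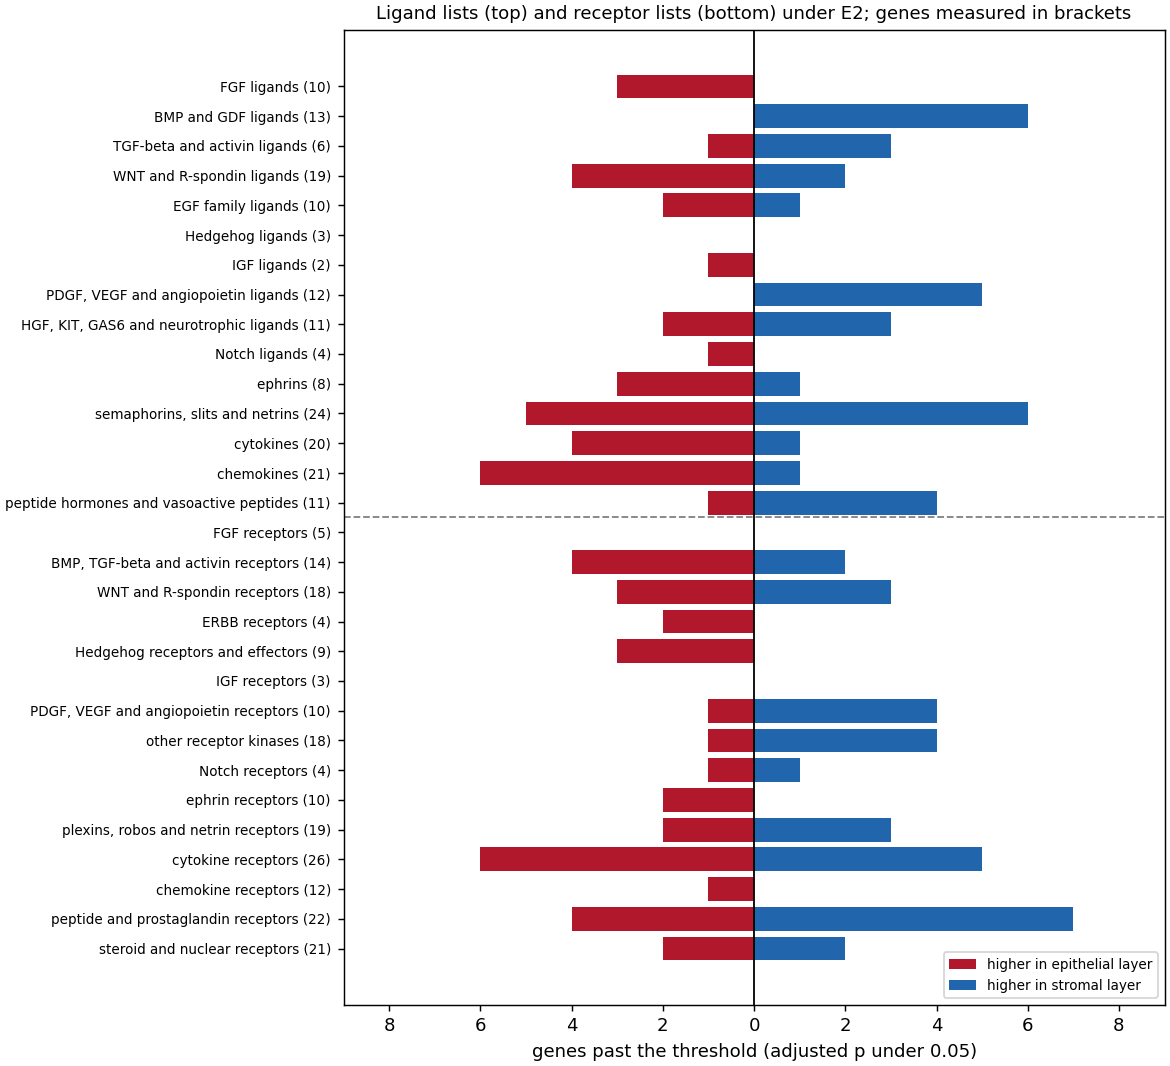
Genes past the threshold (x axis, number of genes) in each ligand list (above the dashed line) and receptor list (below it) under E2, with those higher in the epithelial layer drawn to the left in red and those higher in the stromal layer to the right in blue. BMP and GDF ligands (0 and 6) and PDGF, VEGF and angiopoietin ligands (0 and 5) lie on the stromal side, FGF ligands (3 and 0) on the epithelial side, and FGF and IGF receptors have no bar.

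Fibroblast growth factors signal through tyrosine kinase receptors, and in many organs a mesenchymal Fgf7 or Fgf10 acts on epithelial Fgfr2. Of 10 FGF ligands, 3 were higher in the epithelial layer and 0 in the stromal layer, and 3 were called with each array left out in turn. With the 6 E2 arrays alone, 5 were higher in epithelium and 0 in stroma. Fgf9 had 9.99, 9.66 and 9.74 in the epithelial arrays, against 7.44, 7.16 and 7.49 in the stromal arrays (2.43 ± 0.22, 5.41-fold, adjusted p = 4.15e-05). Fgf7, known elsewhere as a mesenchymal factor, had 10.88, 11.01 and 10.28 in epithelium, against 8.94, 8.99 and 8.81 in stroma (1.81 ± 0.19, adjusted p = 0.000103). Under vehicle the Fgf7 difference was -0.56 ± 0.19. Fgf2 was higher in epithelium as well (0.66 ± 0.12). Fgf10 had 10.10, 10.27 and 10.28 in epithelium, against 9.63, 9.71 and 9.23 in stroma, without overlap, but did not pass (0.69 ± 0.40, adjusted p = 0.293). The standard error of Fgf10 draws on the scatter of the vehicle arrays as well. None of the 5 FGF receptor genes listed passed. Fgfr2 had 7.61, 7.63 and 8.08 in epithelium, against 7.83, 7.93 and 8.05 in stroma (-0.16 ± 0.23, adjusted p = 0.684), and Fgfr1 differed by 0.14 ± 0.17.

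Bone morphogenetic proteins (BMPs) bind type I and type II serine kinase receptors. Of 13 BMP and GDF genes, 0 were higher in epithelium and 6 in stroma, and 4 or 5 with 1 array left out. Bmp8a had 7.56, 7.71 and 7.32 in the epithelial arrays, against 9.80, 9.80 and 9.82 in the stromal arrays (-2.28 ± 0.20, 4.84-fold, adjusted p = 3.31e-05). Its close copy Bmp8b had 8.70, 8.79 and 8.00 in epithelium, against 10.32, 10.44 and 10.07 in stroma (-1.78 ± 0.21), and how far probes of each copy bound the other is uncertain. Bmp7 (-1.09 ± 0.24) and Gdf7 (-1.12 ± 0.22) were lower in epithelium in every leave-one-out fit. Bmp2 (-1.62 ± 0.42) had 8.95, 8.86 and 7.36 in epithelium, against 10.04, 9.90 and 10.10 in stroma. Its call was lost without epithelial replicate 3 or any stromal array (adjusted p up to 0.0789), and that of Bmp4 (-0.79 ± 0.24) without any 1 of the 6 arrays (adjusted p 0.0691 to 0.148).

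Of 14 receptors of this family, 4 were higher in epithelium, namely the type I receptors Bmpr1a (0.48 ± 0.10), Acvr1 (0.79 ± 0.11) and Acvr1b (1.27 ± 0.15) and the coreceptor Tgfbr3 (1.23 ± 0.27). The stromal side held endoglin (Eng), a coreceptor of endothelial and mesenchymal cells, with 9.76, 9.69 and 9.13 in the epithelial arrays, against 12.27, 12.29 and 12.22 in the stromal arrays (-2.74 ± 0.17, adjusted p = 3.64e-06). Tgfbr1 was also lower in epithelium (-0.40 ± 0.09), but not without stromal replicate 2 or 3 (adjusted p up to 0.0693). Of 6 TGF-beta and activin ligands, Tgfb1 was higher in epithelium (0.52 ± 0.11). Tgfb3 (-0.96 ± 0.23), Inhbb (-0.77 ± 0.19) and Inhba (-0.62 ± 0.18) were higher in stroma, of which 0 passed without stromal replicate 3 and 1 without epithelial replicate 1.

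Among secreted antagonists, 5 of 24 were higher in epithelium and 4 in stroma, against 4.43% and 9.88% of all genes. The WNT inhibitor Dkk2 had 9.36, 9.62 and 8.75 in epithelium, against 11.71, 11.73 and 11.48 in stroma (-2.40 ± 0.24), and Dkk3 differed by -1.55 ± 0.15. The BMP antagonist chordin (Chrd, -0.64 ± 0.14) and the activin antagonist Fstl3 (-0.73 ± 0.13) were also on the stromal side. Sfrp2, a secreted frizzled-related protein, had 9.57, 8.99 and 10.31 in the epithelial arrays, against 6.21, 6.20 and 5.93 in the stromal arrays (3.51 ± 0.42, adjusted p = 0.000238), and Sfrp4 differed by 1.35 ± 0.26. Both groups were apart in each of these genes, and the stromal Sfrp2 values were within the olfactory receptor range.

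WNT ligands bind frizzled receptors, and R-spondins raise the response to them. Of 19 ligand genes, 4 were higher in epithelium and 2 in stroma. Rspo1, an R-spondin, had 10.61, 10.35 and 10.39 in the epithelial arrays, against 7.65, 7.61 and 8.09 in the stromal arrays (2.67 ± 0.27, adjusted p = 8.26e-05). Wnt2b differed by 1.90 ± 0.24 in the same direction. Wnt7a, a ligand of the uterine luminal epithelium, had 7.91, 8.44 and 8.71 in epithelium, against 6.62, 6.79 and 6.66 in stroma (1.67 ± 0.46, adjusted p = 0.0324), and passed only when epithelial replicate 1 was the array left out (adjusted p 0.0382 to 0.109 over the 6). Wnt11 (0.59 ± 0.15) was lost without epithelial replicate 3 or stromal replicate 1 or 3 (adjusted p up to 0.0794). Wnt5a, which is stromal in the uterus, had 10.57, 10.69 and 10.39 in epithelium, against 11.47, 11.44 and 11.58 in stroma (-0.95 ± 0.16), and Wnt16 differed by -1.13 ± 0.13. Of 18 receptor genes, the frizzleds Fzd6 (1.61 ± 0.37), Fzd4 (1.03 ± 0.20) and Fzd1 (0.73 ± 0.16) were higher in epithelium, and the coreceptor Lrp5 (-0.62 ± 0.12), Fzd2 and Ror1 in stroma, of which 1 remained without epithelial replicate 2 or stromal replicate 3.

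The EGF family acts on the ERBB receptors. Nrg1, a neuregulin that binds Erbb3, had 9.46, 9.46 and 8.82 in epithelium, against 10.53, 10.62 and 10.57 in stroma (-1.33 ± 0.17, adjusted p = 0.000418). Erbb3 itself had 8.45, 8.95 and 9.17 in the epithelial arrays, against 7.15, 7.07 and 7.04 in the stromal arrays (1.77 ± 0.36, adjusted p = 0.00741), so ligand and receptor lay on opposite sides. Hbegf, heparin-binding EGF, was higher in epithelium (0.81 ± 0.18), and Epgn (0.70 ± 0.14) had 6.14 to 6.71 in epithelium and 5.62 to 5.89 in stroma, within the olfactory receptor range. Erbb2 was higher in epithelium (0.72 ± 0.18) but was lost without epithelial replicate 2 or 3 or stromal replicate 1 or 3 (adjusted p up to 0.0851). Egfr did not pass (-0.11 ± 0.09, adjusted p = 0.469), with 12.12 to 12.16 in epithelium and 12.20 to 12.33 in stroma.

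None of the 3 hedgehog ligands passed. Ihh had 8.03, 7.83 and 8.28 in epithelium, against 8.03, 8.10 and 7.84 in stroma (0.05 ± 0.14, adjusted p = 0.832), and its receptor and target Ptch1 differed by -0.04 ± 0.20 (adjusted p = 0.926). Values of the layers overlapped in both genes, and the sign of each changed under other settings. With array weights, where 5628 genes passed as stromal, Ihh was among those higher in stroma (-0.20, adjusted p = 0.0239). Of 9 receptor and effector genes, the coreceptors Gas1 (0.99 ± 0.21) and Boc (0.94 ± 0.12) and the transcription factor Gli3 (0.60 ± 0.16) were higher in epithelium. Gli3 was lost without any array but epithelial replicate 3 (adjusted p up to 0.118).

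Igf1, a growth factor that relays estrogen action from uterine stroma, had 10.45, 10.36 and 10.29 in the epithelial arrays, against 9.43, 9.40 and 9.86 in the stromal arrays (0.80 ± 0.20, adjusted p = 0.0192). It did not pass without epithelial replicate 1 or 2 or stromal replicate 1 or 2 (adjusted p up to 0.0856), and under vehicle it was lower in epithelium (-1.09 ± 0.20). None of the 3 IGF receptor genes passed, Igf1r differing by 0.27 ± 0.19. Of 6 IGF binding proteins, Igfbp3 had 10.90, 10.54 and 10.91 in epithelium, against 8.45, 8.60 and 8.86 in stroma (2.15 ± 0.20) and was the only member to pass.

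Of 12 PDGF, VEGF and angiopoietin ligand genes, 0 were higher in epithelium (1 without replicate 3 of either layer) and 5 in stroma. With the 6 E2 arrays alone the counts were 3 and 5, and with array weights 4 and 6. Angpt4 had 9.24, 9.04 and 8.30 in the epithelial arrays, against 11.18, 11.15 and 10.94 in the stromal arrays (-2.23 ± 0.36). Pdgfd (-1.58 ± 0.20), Pdgfc (-1.29 ± 0.22) and Vegfb (-0.85 ± 0.09) kept their calls with each array left out. Angpt2 (-1.04 ± 0.28) lost it without epithelial replicate 3 or stromal replicate 2 or 3 (adjusted p up to 0.128). Of 10 receptors, Kdr was higher in epithelium, and Pdgfrb, Nrp2 (-0.95 ± 0.13), Nrp1 (-0.87 ± 0.26) and Flt1 (-0.67 ± 0.16) in stroma, of which 2 remained without epithelial replicate 1 or stromal replicate 1 or 3.

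Kit ligand (Kitl) had 8.80, 8.73 and 8.39 in epithelium, against 6.34, 6.26 and 6.52 in stroma (2.27 ± 0.21, adjusted p = 5.26e-05). Its receptor Kit had 7.89, 8.40 and 8.15 in epithelium, against 6.81, 6.85 and 6.73 in stroma, without overlap, but did not pass (1.35 ± 0.48, adjusted p = 0.0953). The standard error of Kit likewise draws on the scatter of the vehicle arrays. Gdnf (-1.14 ± 0.16), a neurotrophic factor, and Pros1 (-1.85 ± 0.29), a ligand of TAM receptors, were higher in stroma. Met, the receptor of hepatocyte growth factor, had 8.68, 9.03 and 8.76 in the epithelial arrays, against 6.58, 6.73 and 6.29 in the stromal arrays (2.29 ± 0.31) and was the only member of the 18 other receptor kinases to pass as epithelial. Stromal members were Ntrk3 (-1.63 ± 0.25), the macrophage growth factor receptor Csf1r, the collagen receptor Ddr2 (-0.63 ± 0.10) and Ntrk2 (-0.92 ± 0.24), the last lost without any epithelial array (adjusted p up to 0.0799).

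Ephrins and semaphorins guide cells through contact and short-range repulsion. Efna5 had 10.81, 10.75 and 10.82 in epithelium, against 7.95, 8.06 and 7.89 in stroma (2.83 ± 0.22, 7.09-fold), and Efna1 (1.42 ± 0.14) and Efnb2 (1.25 ± 0.19) ran the same way. Of 10 ephrin receptors, Epha1 (2.56 ± 0.18) and Epha2 (1.74 ± 0.16) were higher in epithelium and 0 in stroma. Semaphorins were found on both sides. Sema3f, a secreted semaphorin, had 10.43, 10.48 and 10.47 in the epithelial arrays, against 8.22, 8.30 and 8.31 in the stromal arrays (2.18 ± 0.17), and Sema3e (1.21 ± 0.21), Sema3a (1.14 ± 0.18) and the secreted guidance cue Slit2 (1.77 ± 0.29) were also higher in epithelium. The transmembrane Sema6a (-2.03 ± 0.19), Sema5a (-1.66 ± 0.24) and Sema6c (-0.56 ± 0.09) were higher in stroma, whereas Sema4a, also a transmembrane semaphorin, was higher in epithelium (0.97 ± 0.28), a call lost without any array but epithelial replicate 3 (adjusted p up to 0.134). The secreted Sema3b, Sema3c and Sema3d did not pass. In all, 5 of 24 were epithelial and 6 stromal, and 3 stromal calls remained without epithelial replicate 3 or stromal replicate 1 or 2. Of 19 plexins, robos and netrin receptors, Unc5b was higher in epithelium (1.43 ± 0.13) with each array left out. The 3 stromal calls of that list, among them Robo2 (-1.05 ± 0.29, adjusted p up to 0.129), fell to 0 or 1 whichever array was left out.

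Most inflammatory ligands did not pass, namely 15 of 20 cytokines and 14 of 21 chemokines, and their median differences of 0.27 and 0.38 lay within the olfactory receptor range of 0.04 to 0.54. Il1a, the interleukin-1 alpha gene, averaged 10.94 ± 0.0536 (SD, n = 3) in the epithelial arrays, against 7.34, 7.57 and 6.72 in the stromal arrays (3.73 ± 0.28, 13.2-fold, adjusted p = 1.38e-05). Lif, a cytokine of the receptive uterus, had 9.20, 9.17 and 9.18 in epithelium, against 7.65, 7.63 and 7.99 in stroma (1.43 ± 0.32), narrowly lost without stromal replicate 2 (adjusted p = 0.0534). Il6 had 10.29, 10.72 and 7.69 in epithelium, against 7.17, 7.14 and 5.65 in stroma (2.92 ± 0.78), the replicate 3 array being lowest in each layer. Its call was lost without any array but epithelial replicate 3 (adjusted p up to 0.118). Of 20 cytokines, 4 were higher in epithelium and 1, Csf1 (-0.44 ± 0.10), in stroma. Without stromal replicate 2 the epithelial count was 2, and Csf1 was lost without epithelial replicate 2 or stromal replicate 1 or 2 (adjusted p up to 0.0607).

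Of 21 chemokines, 6 were higher in epithelium and 1 in stroma, and 3 remained epithelial without any array but epithelial replicate 1. Those were Cxcl16 (2.34 ± 0.26), Cx3cl1 (1.13 ± 0.22) and Ccl2, a monocyte attractant, which had 12.06, 11.77 and 11.66 in epithelium, against 9.63, 9.80 and 9.41 in stroma (2.22 ± 0.44). Cxcl14, the stromal one, had 9.92, 9.78 and 10.42 in the epithelial arrays, against 11.83, 11.81 and 12.16 in the stromal arrays (-1.89 ± 0.23). Cxcr4 was the only chemokine receptor of 12 to pass (1.20 ± 0.27). Of 26 cytokine receptors, 6 were epithelial, and 5 with each array left out in turn. Il22ra1 (2.30 ± 0.24), the interleukin-13 receptor Il13ra1 (1.95 ± 0.15) and Il17re (1.22 ± 0.21) kept their calls. Il18r1 (1.92) was lost without any 1 of the 6 arrays (adjusted p 0.068 to 0.101). The 5 stromal ones included the decoy receptor Tnfrsf11b (-1.93 ± 0.12), Il17ra (-1.19 ± 0.19) and Il6st (-0.69 ± 0.14), the shared signalling chain of Lif and Il6.

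Of 22 peptide and prostaglandin receptors, 4 were higher in epithelium and 7 in stroma, where 884 and 1969 of all genes were. Oxtr, the oxytocin receptor, had 10.93, 11.07 and 10.74 in epithelium, against 11.99, 11.96 and 12.20 in stroma (-1.13 ± 0.25). Ptgdr2, a prostaglandin D receptor, differed by -1.94 ± 0.14, whereas the prostaglandin E receptors Ptger4 (1.21 ± 0.21) and Ptger2 (1.09 ± 0.18) were higher in epithelium. Ramp1 (-0.87 ± 0.14) and Ramp2 (-0.91 ± 0.15), partners of the calcitonin receptor family, were lower in epithelium, and so was Ramp3 (-1.86 ± 0.43), which was lost without stromal replicate 1 or 2 (adjusted p up to 0.0581). The natriuretic peptide receptor Npr1 (1.48 ± 0.18) and the ligand Nppc (-1.32 ± 0.26) lay on opposite sides, although Nppc acts mainly through another receptor. Of 11 peptide ligands, 1 was epithelial and 4 stromal, and 1 stromal call remained without epithelial replicate 3 or stromal replicate 1 or 2 and 2 without stromal replicate 3. The epithelial call was 0 without stromal replicate 1 or 2.

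The receptors that read E2 and progesterone did not pass. Esr1 had 10.34, 10.41 and 10.51 in the epithelial arrays, against 10.48, 10.47 and 10.80 in the stromal arrays (-0.16 ± 0.14, adjusted p = 0.506), with overlap. Esr2 values (5.96 to 6.35 in epithelium and 6.32 to 6.40 in stroma) lay within the olfactory receptor range. Pgr, the progesterone receptor, had 10.75, 10.85 and 10.12 in epithelium, against 11.08, 11.20 and 11.33 in stroma (-0.63 ± 0.24, adjusted p = 0.121), lower in epithelium without overlap but not past the threshold, while under vehicle it was lower in epithelium (-2.69 ± 0.24). Of 21 nuclear receptors, Vdr, the vitamin D receptor, was higher in epithelium (1.16 ± 0.20), as was Nr4a1 (1.31 ± 0.38), lost without any array but epithelial replicate 3 (adjusted p up to 0.137). The retinoid receptors Rxra (-0.58 ± 0.12) and Rarb (-1.85 ± 0.45) were lower in epithelium, Rarb not without epithelial replicate 3 or stromal replicate 1 or 2 (adjusted p up to 0.0703).

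Set side by side, 92 ligand and receptor pairs had both genes measured, several sharing a ligand or a receptor. Ligand and receptor both passed in 14 pairs. In 5 the ligand was higher in stroma and the receptor in epithelium, in 4 the ligand was higher in epithelium and the receptor in stroma, in 2 both were epithelial and in 3 both stromal. Of all ligand genes listed, 19.0% passed in each direction, and of all receptor genes 16.4% as epithelial and 15.9% as stromal. Whether 14 pairs, or their split, exceed what these shares alone would give was not tested. With each array left out in turn, 4 of the 14 kept both calls. These were Nrg1 with Erbb3 and Bmp7 with Acvr1 from stroma to epithelium, Sema3f with its receptor Nrp2 from epithelium to stroma, and Efna1 with Epha2 within epithelium. The other 10 were Bmp2 and Bmp4 with Bmpr1a, Ntn1 with Unc5b, Jag1 with Notch1 and with Notch2, Sema3a with Nrp1, Sema3e with Plxnd1, Csf1 with Csf1r, Edn1 with Ednrb, and Bdnf with Ntrk2. Of the 4 kept pairs, Erbb3 lost its call with E2 replicates 1 and 2 averaged and without replicate 3 of both layers. Bmp7 lost its call without replicate 3 of both layers and at a threshold of 0.01. Acvr1 and Nrp2 fell short of a 2-fold minimum, whereas Efna1 and Epha2 kept their calls under every alternative. Jag1, a Notch ligand, had 10.45, 10.41 and 11.10 in epithelium, against 9.67, 9.70 and 9.64 in stroma (0.98 ± 0.18) and kept its call. Notch1 (-0.36 ± 0.11, adjusted p 0.0388 to 0.136) and Notch2 (0.34 ± 0.10, adjusted p 0.0465 to 0.159) each passed in 1 of the 6 leave-one-out fits. Transcript levels alone do not show that a pair signalled.

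**Figure D4:**
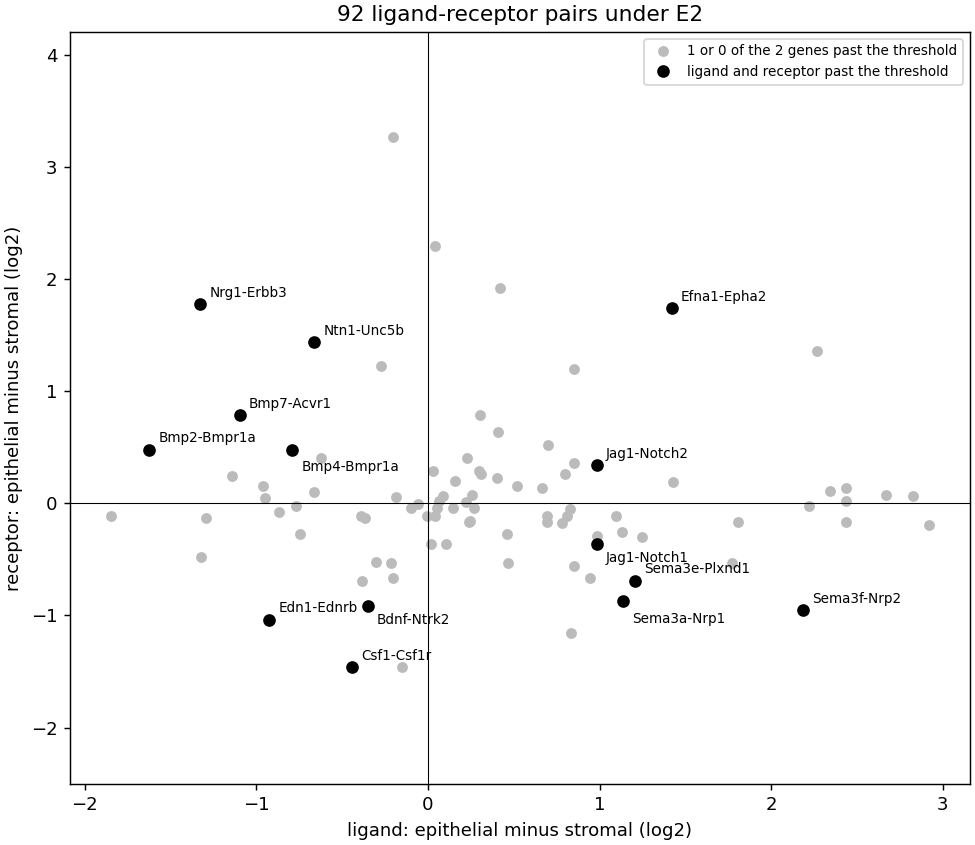
Epithelial minus stromal log2 difference of the ligand (x axis) and of its receptor (y axis) in 92 pairs under E2, 1 point per pair. The 14 pairs with both genes past the threshold are black and named, with 5 in the upper left (stromal ligand, epithelial receptor), 4 in the lower right, 2 in the upper right and 3 in the lower left.

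Of 90 matrix genes and integrins, 11 were higher in epithelium (12.2%) and 25 in stroma (27.8%), against 4.43% and 9.88% over all genes. Both shares were above those of all genes, in lists likewise chosen with earlier results known. The stromal calls outnumbered the epithelial ones here as over all genes. None of the 11 fibrillar and fibril-associated collagens passed. Of 15 network collagens, 0 were epithelial and 5 stromal, and Col4a3, a basement membrane collagen, had 7.77, 7.66 and 7.95 in epithelium, against 9.20, 9.27 and 9.39 in stroma (-1.50 ± 0.14). The collagen VI chain Col6a2 differed by -1.12 ± 0.21, and 3 members of the list remained without stromal replicate 3. Among laminins and their partners, Lama2 (-1.91 ± 0.23), Lamb2 (-0.75 ± 0.12) and nidogen (Nid1, -0.92 ± 0.14) were stromal. The epithelial laminin chains Lama3 (1.64 ± 0.39) and Lamb3 (1.78 ± 0.43) passed, but of 5 epithelial calls in that list 1 remained without epithelial replicate 3 or stromal replicate 1, and 2 and 3 without stromal replicates 2 and 3. Versican (Vcan, -1.92 ± 0.22) and Mfap5 (-2.00 ± 0.27) were lower in epithelium and the matricellular protein Tnc was higher (0.64 ± 0.11).

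Of 19 integrins, the receptors of matrix, 4 were higher in epithelium and 9 in stroma, again with more stromal than epithelial calls, as over all genes. Itgb6, a subunit of epithelia, had 8.71, 9.16 and 9.68 in the epithelial arrays, against 5.77, 5.65 and 5.75 in the stromal arrays (3.46 ± 0.46, adjusted p = 0.000477). The stromal values were within the olfactory receptor range. Itga8, a subunit of mesenchyme, had 9.56, 9.57 and 9.02 in epithelium, against 11.84, 11.85 and 12.16 in stroma (-2.57 ± 0.28), and the collagen-binding Itga11 (-1.95 ± 0.28) and Itga1 (-1.58 ± 0.26) ran the same way. Itga6 was lower in epithelium (-1.33 ± 0.39, adjusted p = 0.0435) but was lost without any 1 of the 6 arrays (adjusted p 0.08 to 0.121).

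The layer difference under E2 was then set against that under vehicle, in which 4469 genes differed between the layers (22.4%). Of the 2853 genes called under E2, 1956 (68.6%) were called in the same direction under vehicle, 43.8% of the vehicle calls, and 19 in the opposite direction. The difference itself differed between the treatments, by the interaction term, in 184 genes (0.923%), of which 63 were among the 878 genes called under E2 and not under vehicle. That count ranged from 65 to 653 when 1 of the 12 arrays was left out. It was 65 to 80 without stromal E2 replicate 1 or 2 or epithelial E2 replicate 1 or 2, 87 to 108 without stromal vehicle replicate 1 or 3, stromal E2 replicate 3 or epithelial vehicle replicate 1, and 627 and 653 without the replicate 3 arrays of the E2 and vehicle epithelium. Median differences moved toward 0 in both marker lists, being 2.06 under E2 and 3.68 under vehicle for epithelial markers, and -0.24 and -0.97 for stromal markers, and the part of this shift in the genes below was not tested.

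Prg4 separated the layers under E2 alone. Under vehicle it had 5.24, 5.28 and 5.58 in the epithelial arrays, against 5.26, 5.27 and 5.10 in the stromal arrays (0.16 ± 0.15), all within the olfactory receptor range, and the interaction was -3.10 ± 0.21 (adjusted p = 0.000243). Bmp8a was lower in epithelium under both treatments, the difference being -2.28 under E2 and -0.89 under vehicle (interaction -1.39 ± 0.28, adjusted p = 0.0488). Fgf9 (interaction 0.73 ± 0.31, adjusted p = 0.429) and Sprr2f (0.09 ± 0.38, adjusted p = 1.00) did not pass, and their vehicle differences were 1.71 ± 0.22 and 5.85 ± 0.27. Fgf7 had 10.23, 10.11 and 10.23 in vehicle epithelium, against 11.06, 10.76 and 10.42 in vehicle stroma, so its order was turned under E2 (interaction 2.36 ± 0.27, adjusted p = 0.00378). By group means the larger Fgf7 change was a fall in stroma, at 8.92 under E2 and 10.74 under vehicle. The epithelial means were 10.72 under E2 and 10.19 under vehicle, and the change within either layer was not tested. Pgr had means of 10.57 under E2 and 7.59 under vehicle in epithelium, and 11.20 and 10.28 in stroma (interaction 2.06 ± 0.34, adjusted p = 0.0186).

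The genes with the smallest interaction p among those that also passed under E2 were 6 in each direction. Those that moved toward stroma under E2 were, beside Prg4, the thyrotropin receptor Tshr (-2.33 ± 0.23), the mucin Muc13 (-2.07 ± 0.19), the potassium channel subunit Kcnab1 (-2.10 ± 0.22), the matrix protein Adamtsl1 (-2.76 ± 0.30) and the exchange factor Arhgef6 (-1.70 ± 0.21). Muc13 had 6.68, 6.59 and 6.48 in the epithelial E2 arrays, against 8.80, 8.78 and 8.59 in the stromal E2 arrays, and means of 6.11 and 6.17 under vehicle. Those that moved toward epithelium were the neurite protein Nrn1 (2.98 ± 0.30), Tlnrd1 (1.98 ± 0.20), the inositol kinase Itpkb (1.35 ± 0.13), the isocitrate dehydrogenase Idh1 (1.34 ± 0.15), Fgf7 and Doc2b (1.57 ± 0.18), a calcium sensor of exocytosis that stayed lower in epithelium under E2 (-0.65 ± 0.13). Nrn1 had 11.04, 11.02 and 10.70 in E2 epithelium, against 8.48, 8.41 and 8.74 in E2 stroma, and means of 7.92 and 8.52 under vehicle.

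**Figure D5:**
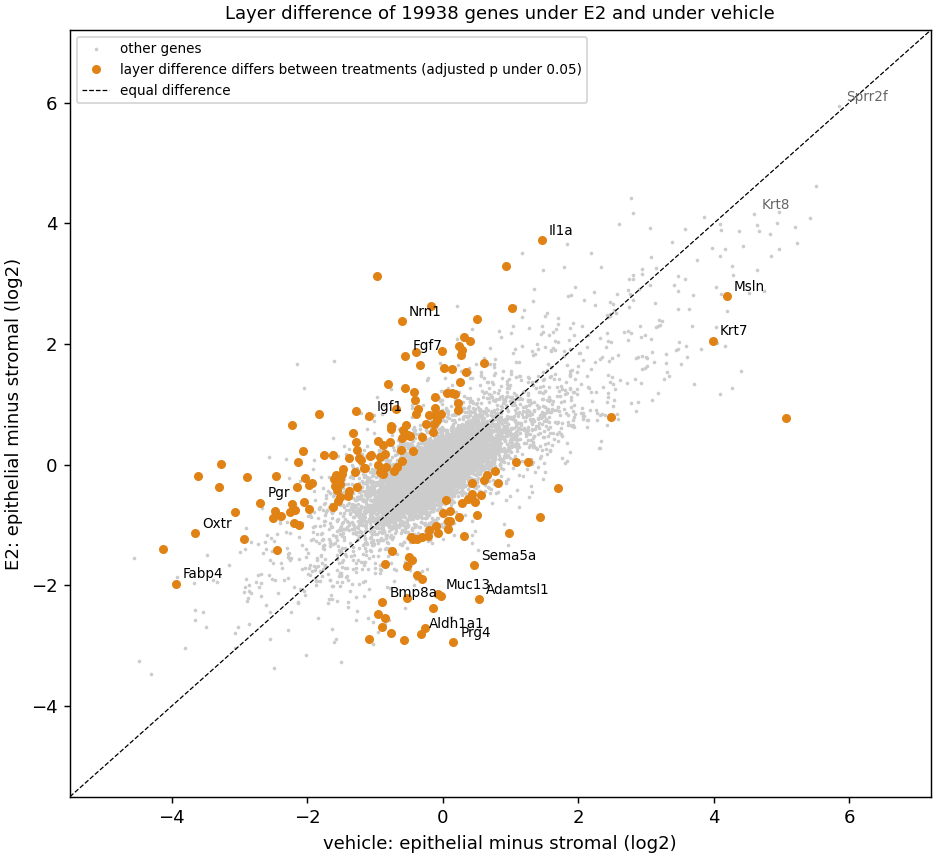
Epithelial minus stromal log2 difference of 19938 genes under vehicle (x axis) and under E2 (y axis), 1 point per gene, with the dashed line where both are equal. The 184 genes whose difference differed between treatments are orange, Prg4 (-2.94 under E2, 0.16 under vehicle) and Fgf7 (1.81 under E2, -0.56 under vehicle) lie away from the line, and Sprr2f (5.94 under E2, 5.85 under vehicle) lies close to it.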

How the data were processed

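The values are log2 signals deposited by the authors for 12 arrays, made with RMA per the submitters' processing notes (version and settings not given in the sources used here), ranging from 3.20 to 14.0 over 35556 probe sets. They were tested as deposited. The platform annotation gave 1 symbol to 21789 probe sets, several to 1621 and none to 12146. A gene was its brightest single-symbol probe set by the mean of all arrays (999 genes had more than 1).

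Layers were compared with limma 3.58.1 in R 4.3.3 (lmFit and eBayes, 4 groups, 8 residual degrees of freedom, two-sided), with Benjamini-Hochberg adjustment over the 23410 probe sets with a symbol and a threshold of 0.05. The spread of each probe set was shared by all arrays. The procedure was tested on simulated data. The number of arrays limits the precision.

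Genes were named by rule, namely the 15 largest differences per direction, up to 6 members per list and direction, 6 interactions per direction, both genes of a called pair, and a set of signalling and identity genes always named. Others were chosen after their values were seen. The text gives a selection. The 51 gene lists and 92 pairs, like the samples compared, were chosen with earlier results of these data known.

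Replicate numbers come from the titles, and the layers were not paired.

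Alternatives were the E2 arrays alone, a replicate block, a filter on low values, all or only single-symbol probe sets, median centring, quantile normalization, a variance trend, array weights, the mean of a gene's probe sets, other thresholds and leaving out each array. Added later, with the values known, were an average of E2 replicates 1 and 2 in each layer, leaving out replicate 3 of both E2 layers, and all alternatives of the interaction. RefSeq promoters are those of GRCm38.p6.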

Additional observations from a re-analysis of the deposited data

Results flagged for a closer look

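The layer difference under E2 was set against that under vehicle by the interaction term of the limma fit. It differed at an adjusted p below 0.05 in 30 of the genes named, and in 184 of all 19938 genes (0.923%). Some genes were named for a small interaction p. The 30 were thus partly selected on the same test and cannot be compared with that share. Each value is the E2 layer difference minus the vehicle layer difference, on the log2 scale. A positive value means a move toward epithelium under E2. Groups of 3 arrays were not examined for outlying arrays.

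Among ligands and their antagonists the values were 2.36 for Fgf7, 2.27 for Il1a, 2.16 for Sfrp4, 1.89 for Igf1, -1.39 for Bmp8a and -2.13 for Sema5a. Receptors gave 2.52 for Oxtr, 2.06 for Pgr, 1.06 for Boc, 0.67 for Tnfrsf19, -1.69 for the integrin Itga3 and -2.33 for Tshr. Identity and adhesion genes gave 1.97 for Fabp4, 0.85 for Cdh11, -0.73 for the smooth muscle gene Cnn1, -1.07 for Krt80, -1.40 for Msln and -1.93 for Krt7.

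The remaining genes gave 2.98 for Nrn1, 1.98 for Tlnrd1, 1.57 for Doc2b, 1.35 for Itpkb and 1.34 for Idh1. In the other direction they gave -1.70 for Arhgef6, -1.80 for Myom1, -2.07 for Muc13, -2.10 for Kcnab1, -2.48 for Aldh1a1, -2.76 for Adamtsl1 and -3.10 for Prg4.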

How the results depend on the processing

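Of the named genes, 265 passed, of which 194 did so with each E2 array left out in turn, 127 did so under every alternative run, and 0 changed direction. Leaving out an E2 array gave 559 to 887 genes higher in epithelium (884 in the fit reported) and 1189 to 1757 higher in stroma (1969). Leaving out any of the 12 arrays gave 65 to 653 interaction genes (184). Array weights gave 4377, 5628 and 3984, and a threshold of 0.01 gave 476, 1001 and 38. A minimum of 2-fold gave 388 and 455, and median centring gave 2971 in stroma. Testing all probe sets gave 102 interaction genes. With E2 replicates 1 and 2 of each layer averaged the counts were 391 and 882, and without replicate 3 of both layers they were 645 and 1049. The cause of these shifts was not tested, except that fewer arrays or stricter thresholds were used where stated.

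Residuals of same-numbered E2 arrays correlated at -0.31, 0.23 and -0.06, and a replicate block on the 6 E2 arrays gave 963 and 1640. Among genes that did not pass in the fit reported, Ihh changed sign with median centring (-0.061), with array weights (-0.20) and without replicate 3 of both layers (-0.14). With array weights Ihh passed as higher in stroma (adjusted p = 0.0239). Ptch1 changed sign with quantile normalization (0.0088). With 1 E2 array left out, Ihh ranged from -0.062 to 0.16, Ptch1 from -0.089 to 0.0037, Col1a1 from -0.026 and Hand2 up to 0.015. Arrays give no depth, and signals near those of olfactory receptor genes limit what low values can show.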
